A study of Mus musculus with 20 samples.

Results

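The interferon-induced genes described here are Gbp7, Gbp2, Ifi47, Irf7, Ifit1, Ifit3, Isg15, Psmb8 and Psmb9 in mouse kidney, 9 of the 8251 genes that the platform annotation of the array names alone on a probe set. They were chosen by name with earlier results of these data known, so their shares against all probe sets below are descriptions only. Every probe set that the annotation maps to 1 of these genes alone was taken. This gave 10 of 12422 probe sets, with 2 for Irf7 and 1 for each other gene. The study fed 2 diets to 2 genotypes to compare the renal response to phosphate restriction between them, and it measured total RNA of the kidney on 20 oligonucleotide arrays, 1 pool of 3 mice on each. With 5 arrays in each, the 4 groups were Hyp mice fed low phosphate (Hyp low phosphate), Hyp mice fed the control diet (Hyp control), normal mice fed low phosphate (normal low phosphate) and normal mice fed the control diet (normal control), all of the C57BL/6J strain. The Hyp mutation lies in Phex and models X-linked hypophosphatemia, in which the kidney wastes phosphate. Mice were fed for 5 days on 12 arrays and for 3 days on 8, and 12 arrays came from males and 8 from females; ages and the make-up of the diets were not given. By their title numbers the arrays form sets that share sex and days: 01 to 04 (male, 5 days), 05 to 08 (female, 5 days), 11 to 14 (male, 3 days) and 15 to 18 (female, 3 days) with 1 array of each group, 09 and 10 (Hyp, male, 5 days) with 1 array of each diet, and 19 and 20 (normal, male, 5 days) likewise.

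Interferons are secreted signals of antiviral and immune defence. Type I interferons act on target genes through the interferon-stimulated response element (ISRE), and interferon-gamma acts through the interferon-gamma activated site (GAS). The target genes encode GTPases that attack the compartments of intracellular pathogens, antiviral RNA-binding proteins, a ubiquitin-like modifier and the immunoproteasome subunits that alter the peptides shown on MHC class I. Tubular epithelium, endothelium and resident leukocytes of the kidney can all express such genes.

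The promoter windows of these genes, from 250 bases before to 50 bases after the transcription start, are shown because both motifs are known binding sites of interferon signalling and because Gbp7, the member with the largest diet difference below, is the 1 gene of the 9 whose window holds both. All 9 genes matched a window in RefSeq (GRCm38.p6). The ISRE was searched as GAAA and GAAA with 2 bases of any kind between them, which reads TTTC and TTTC on the opposite strand, and the GAS as TTCNNNGAA, which is its own reverse complement. In the Gbp7 window the matches of the 2 motifs do not overlap. The ISRE letters stood in 5 of the 9 windows, against 3.44% of 32851 windows in all, and the GAS letters in 2 of 9, against 8.3% in all. Each stretch below reads 5′ to 3′ on the gene's strand with the matches in capitals and 20 bases on either side. Gbp7 holds 2 GAS matches followed by 1 ISRE match (chr3:142530210-142530312, plus strand), Gbp2 holds 1 ISRE match (chr3:142620584-142620633, plus strand), Ifit1 holds 2 (chr19:34640765-34640833, plus strand) and Ifit3 holds 2 (chr19:34583353-34583436, plus strand). Isg15 holds 3 overlapping ISRE matches (chr4:156200855-156200916, minus strand), and Psmb8 holds 1 GAS match (chr17:34198078-34198126, plus strand).
Gbp7: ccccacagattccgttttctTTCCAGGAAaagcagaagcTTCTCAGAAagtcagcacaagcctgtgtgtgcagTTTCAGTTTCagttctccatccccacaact
Gbp2: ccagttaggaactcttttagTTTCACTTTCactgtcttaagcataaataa
Ifit1: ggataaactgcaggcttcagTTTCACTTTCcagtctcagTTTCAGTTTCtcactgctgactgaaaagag
Ifit3: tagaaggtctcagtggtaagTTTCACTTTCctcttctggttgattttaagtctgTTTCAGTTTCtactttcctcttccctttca
Isg15: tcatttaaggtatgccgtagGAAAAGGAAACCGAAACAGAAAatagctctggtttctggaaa
Psmb8: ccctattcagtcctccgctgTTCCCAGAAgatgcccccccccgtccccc
The windows of Irf7, Ifi47 and Psmb9 held neither run of letters. Among the 9 genes, Psmb9 and Ifi47 had the largest falls after Gbp7 in Hyp mice on low phosphate diet. Their log2 differences were -0.89 and -0.64. A link between the letters and the diet differences was not tested. A match is a description of the sequence and was not tied to binding by any measurement here.

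Values are linear signal intensities, brought by the authors to the same trimmed mean on every array (500.254 to 500.309). All 10 probe sets had a mean intensity above the filter on dim values (79.4), and 8695 probe sets were tested. The tissue label was borne out by its markers: the summed intensity of 4 proximal tubule markers ran from 43544 to 60562 and that of 2 thick ascending limb markers from 15202 to 20876, while Podxl, the single podocyte marker on the array, had a mean intensity of 36.8, under the offset of 37.8, and 118.6 on its highest array. Arrays 05 to 08 stood apart, with median Spearman correlations to the other arrays of 0.895 to 0.934 against 0.943 to 0.969 for the other 16. The ratio of the 3′ to the 5′ actin control, which rises as RNA degrades, was 1.74 to 2.61 on them, against 1.22 to 1.98 for the other 16. Array 17, a Hyp control array, stood apart for the genes described here. It was the highest of the 20 arrays for 7 of the 10 probe sets, against 3.92% of all probe sets tested. Some calls and larger differences of these genes are therefore also given without array 17 or without arrays 05 to 08. Differences of the other pathway genes below, apart from Lgals3bp and Plscr1, are given for all 20 arrays only.

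Gbp7 and Gbp2 encode guanylate-binding proteins, large interferon-induced GTPases of cell-autonomous defence. The Gbp7 intensity on each array, in the order of title numbers, was 323, 440.3, 564, 365 and 655 in Hyp low phosphate mice and 1011, 843, 766, 702 and 1357 in Hyp control mice. It was 435, 415, 365, 606 and 385 in normal low phosphate mice and 491, 559, 627, 553 and 473 in normal control mice. Every Hyp control array lay above each of the 15 other arrays, whose highest value was 655, and the other 3 groups overlapped. Such a pattern was seen for 4 of 8695 probe sets (0.046%), and the other 3, named here after their values were seen, were those of Ttr, Col5a2 and a probe set with no gene name. The group means were 469.6 ± 138 in Hyp low phosphate mice, 936 ± 262 in Hyp control mice, 441 ± 95.8 in normal low phosphate mice and 540.5 ± 61.4 in normal control mice (SD, n = 5 each).

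Gbp2 intensities were 174, 291, 225, 138 and 165 in Hyp low phosphate mice and 325, 272, 217, 243 and 646 in Hyp control mice. In normal mice they were 146, 222, 192, 157 and 167 on low phosphate diet and 219, 179, 175, 186 and 192 on control diet. Array 17, at 646, stood far above the rest, and the Hyp control arrays overlapped with Hyp low phosphate arrays and, by their lowest value, with arrays of both normal groups. Ifi47 encodes an interferon-gamma-induced GTPase of the immunity-related family. Its intensities were 136, 51.4, 168, 113 and 152 in Hyp low phosphate mice, against 189.5, 205, 112, 176 and 433 in Hyp control mice. In normal low phosphate mice they were 76.3, 33.3, 118, 128 and 73.5, and in normal control mice 128, 79.8, 147, 183 and 122. All Hyp control arrays but array 09 lay above every Hyp low phosphate array, and array 17 was again far above the rest.

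Psmb8 and Psmb9 encode immunoproteasome subunits, which take the places of Psmb5 and Psmb6 in the proteasome core. Psmb8 intensities were 471, 396, 377, 389 and 428 in Hyp low phosphate mice and 661, 471, 349, 508 and 758 in Hyp control mice. In normal mice they were 301, 217, 369, 425 and 428 on low phosphate diet and 419, 402, 413, 468 and 449.6 on control diet. Among the Hyp control arrays, array 09 was the lowest for Psmb8 and lay below every Hyp low phosphate array, while the other 4 lay above all of those, array 07 by the narrow margin of 470.9 against 470.6. Psmb9 had 42.8, 73.6, 43.4, 90.9 and 154 in Hyp low phosphate mice and 249.5, 60.7, 128, 153 and 407 in Hyp control mice. In normal mice Psmb9 had 128, 48.2, 147, 88.2 and 172 on low phosphate diet and 207, 51.1, 142, 213 and 119 on control diet. The 4 groups of Psmb9 values overlapped, and all 4 arrays of the set 05 to 08 were among the 6 lowest of 20.

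Ifit1 and Ifit3 encode tetratricopeptide-repeat proteins, of which Ifit1 binds foreign RNA caps. Ifit1 ran from 91.1 to 214 in Hyp low phosphate mice, 80.9 to 332 in Hyp control mice, 28.9 to 172 in normal low phosphate mice and 74.1 to 195 in normal control mice. For Ifit3 the ranges in the same 4 groups were 349 to 539 (Hyp low phosphate), 312 to 739 (Hyp control), 273 to 423 (normal low phosphate) and 302 to 491 (normal control). Isg15, which encodes the ubiquitin-like modifier of the interferon response, ran from 185 to 593 in Hyp low phosphate mice, 208 to 747 in Hyp control mice, 72.0 to 477 in normal low phosphate mice and 326 to 540.2 in normal control mice. All 4 groups overlapped for each of these 3 genes.

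Irf7 encodes the transcription factor that amplifies type I interferon production. The brighter of its 2 probe sets ran from 262 to 314 in Hyp low phosphate mice, 65.5 to 354 in Hyp control mice, 92.6 to 276 in normal low phosphate mice and 226 to 285 in normal control mice. Its lowest values, 65.5 in Hyp control and 92.6 in normal low phosphate mice, both came from the set 05 to 08. The other probe set, whose name marks it as shared within a gene family, ran from 186 to 406 in Hyp low phosphate mice, 193 to 267 in Hyp control mice, 197 to 272 in normal low phosphate mice and 136 to 350.0 in normal control mice. The 2 probe sets of Irf7 did not vary together, with a Pearson r of 0.03 over the 20 arrays, given as a description since the arrays share sets. Irf7 is given below by the brighter probe set.

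Means were ordered the same way for Gbp2, Ifit1, Ifit3 and Isg15, with Hyp control highest, followed by Hyp low phosphate, normal control and normal low phosphate. Gbp2, for instance, averaged 199 ± 60.7 in Hyp low phosphate, 341 ± 176 in Hyp control, 177 ± 30.5 in normal low phosphate and 190.1 ± 17.4 in normal control mice (SD, n = 5 each). Ifit1 averaged 137 ± 53.8, 197 ± 111, 89.6 ± 57.2 and 123 ± 47.6 in Hyp low phosphate, Hyp control, normal low phosphate and normal control mice in that order. In the same order of groups, Ifit3 averaged 441 ± 73.8, 505 ± 179.8, 334 ± 62.8 and 375 ± 72.4, and Isg15 averaged 426 ± 164, 508 ± 195, 349 ± 159.6 and 420.0 ± 77.2. In each of these 4 genes neighbouring means lay closer than the larger of their SDs. For Gbp7 the order was Hyp control, normal control, Hyp low phosphate and normal low phosphate, and Hyp control alone stood apart from its neighbour by more than the larger SD.

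Ifi47 averaged 124 ± 45.3 in Hyp low phosphate, 223 ± 122 in Hyp control, 85.7 ± 38.0 in normal low phosphate and 132 ± 37.7 in normal control mice (SD, n = 5 each). Psmb8 averaged 412 ± 37.8, 549 ± 161, 348 ± 89.6 and 430.4 ± 27.4 in those groups, and Psmb9 averaged 81.0 ± 45.9, 199.8 ± 134, 117 ± 49.0 and 146 ± 67.0. Hyp control was the highest group for these 3 genes too, the lowest was normal low phosphate for Ifi47 and Psmb8 and Hyp low phosphate for Psmb9, and neighbouring means again lay closer than the larger SD. Irf7 alone among the 9 genes had its highest mean in Hyp low phosphate mice, at 292 ± 22.6. It averaged 248 ± 119 in Hyp control, 201 ± 69.3 in normal low phosphate and 253 ± 27.9 in normal control mice. The step between Hyp low phosphate and normal control was larger than either SD. The Hyp control mean of Irf7 includes 65.5 on array 07, while the other Hyp control arrays ran from 212.7 to 354.3.

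**Figure D1:**
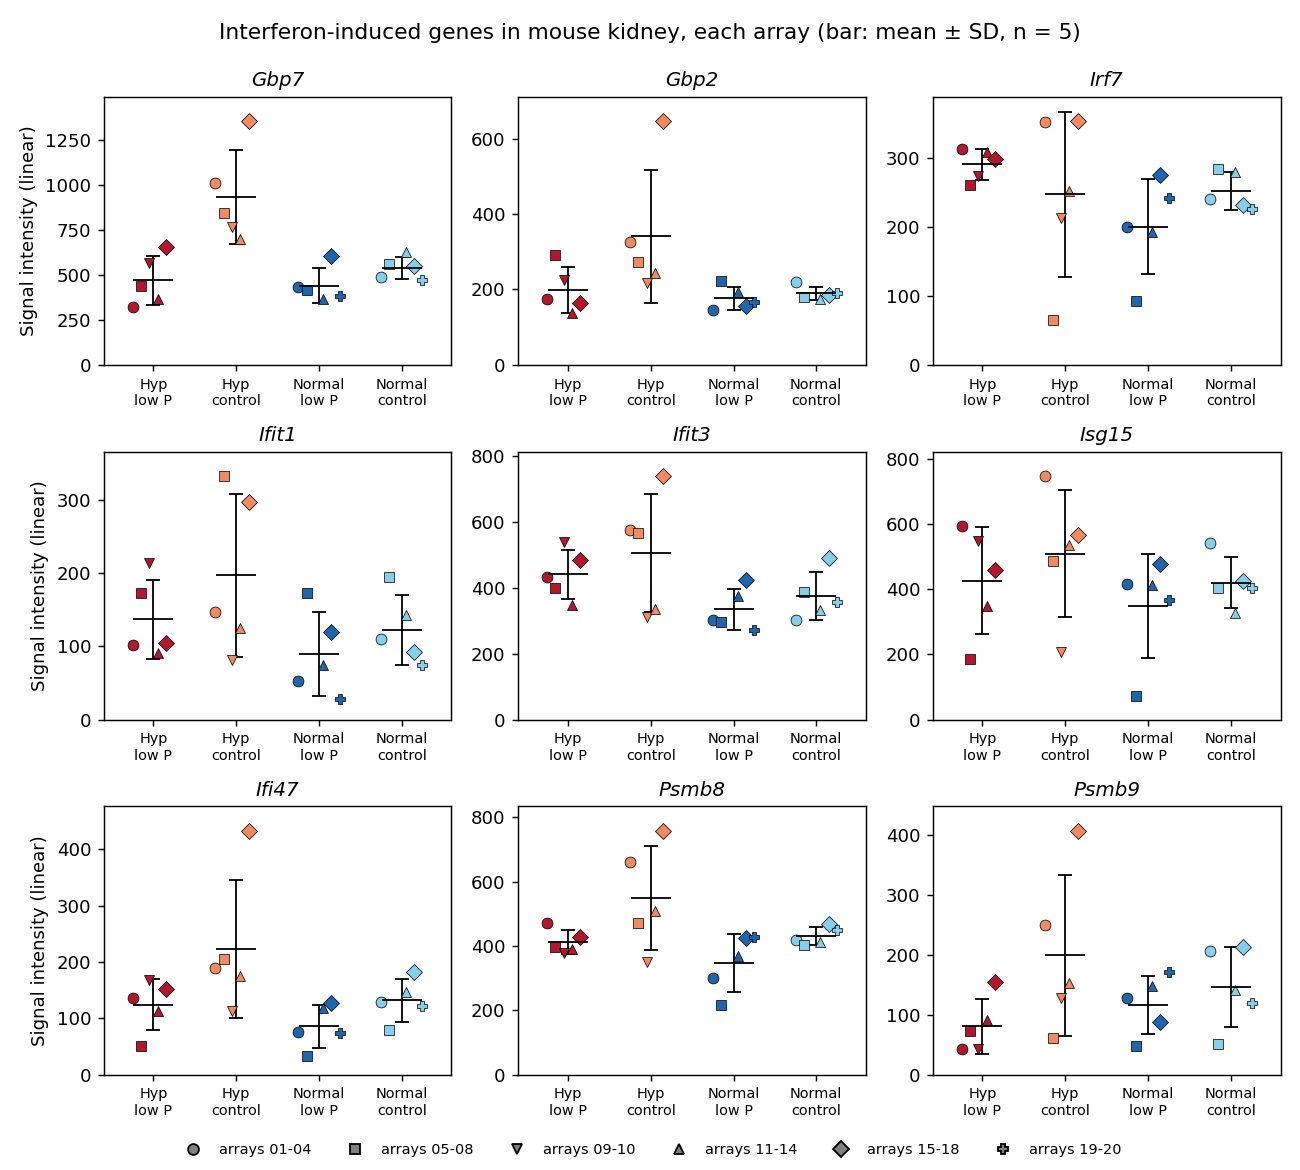
Signal intensity (linear scale, from 0) of the 9 genes on each of 20 arrays by group; the marker shape gives the array set, and the bars the mean ± SD of 5 arrays. For Gbp7 the 5 Hyp control arrays, at 702 to 1357, lie above all 15 others, and for Gbp2 and Ifi47 the Hyp control array of the set 15 to 18 (array 17) stands at 646 and 433, apart from its group.

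Among the 9 genes, Gbp7 had the largest fall in Hyp mice on low phosphate diet. Its log2 difference was -0.94 ± 0.15 SE (95% interval -1.26 to -0.63), with an adjusted p of 0.0117 in limma, and it was lower in 5 of 5 array sets. Of the 10 probe sets, 1 passed the adjusted threshold of 0.05, against 0.15% of all 8695 tested (0.115% for lower calls), and its groups of 5 did not overlap, as in 0.207% of all in that direction. With an unadjusted p under 0.05, 5 of 10 were lower, against 2.14% of all, and 8 of 10 had a difference below 0, against 48.8% of all. Besides Gbp7 these 5 were Psmb9 (-0.89 ± 0.28 SE), Ifi47 (-0.64 ± 0.20 SE), Gbp2 (-0.61 ± 0.21 SE) and Psmb8 (-0.34 ± 0.16 SE), with adjusted p-values of 0.762 or above in limma. Ifit1 differed by -0.34, Isg15 by -0.23 and Ifit3 by -0.13, each within 2 SE of 0, and Irf7 by 0.35 ± 0.23 SE in the other direction. Without array 17 the Gbp7 difference was -0.89 and its adjusted p was 0.0599, and without arrays 05 to 08 they were -0.96 and 0.126. Gbp2 differed by -0.35 without array 17, against -0.61 with it. Without array 17 Psmb9 differed by -0.71 and Ifi47 by -0.50. Without array 07 Ifi47 differed by -0.47 and Irf7 by 0.08. The 9 genes had a median of -0.34, which was -0.57 without array 09 and -0.585 without array 10. It was -0.26 without array 17, -0.24 without arrays 15 to 18 and -0.37 without arrays 05 to 08. The number of the 9 genes with an unadjusted p under 0.05 was 5 in the fit to all arrays and 6 without array 09. It was 4 without array 17, 3 without arrays 05 to 08 and 2 without arrays 15 to 18. In RNA from whole kidney, fewer cells of a type that expresses a gene and less RNA of that gene per cell cannot be told apart.

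Normal mice were compared between the same diets. None of the 10 probe sets passed the adjusted threshold in limma, against 0.184% of all tested, and 1 of 10, that of Ifi47, was lower with an unadjusted p under 0.05, against 4.43% of all. Ifi47 differed by -0.49 ± 0.20 SE (unadjusted p = 0.0257, adjusted p = 0.469 in limma) and Gbp7 by -0.29 ± 0.15 SE (95% interval -0.60 to 0.03). In direction, 9 of 10 differences were below 0 (all but the dimmer probe set of Irf7), against 47.7% of all. Ifit1 (-0.40), Isg15 (-0.40), Irf7 (-0.34) and Psmb8 (-0.31) had larger differences than Gbp7 in the fit to all arrays, and Gbp2 (-0.09) the smallest. For Isg15, Irf7 and Psmb8 that order rested on arrays 05 to 08. Without them Isg15 differed by -0.004, Irf7 by -0.09, Psmb8 by -0.19 and Gbp7 by -0.26. Ifit1 differed by -0.62 to -0.32 over the alternative fits, which include the fit without those arrays. Without array 06 alone Isg15 differed by -0.08, and without array 05 alone Irf7 differed by -0.11. Ifi47 differed by -0.43 without arrays 05 to 08, with an unadjusted p of 0.0557 in limma.

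The difference between the 2 diet responses was tested as an interaction. It was -0.66 ± 0.21 SE for Gbp7 (unadjusted p = 0.00642, adjusted p = 1 in limma), so a larger fall of Gbp7 in Hyp than in normal mice was not established by the adjusted test. None of the 10 probe sets passed it, against 0.046% of all tested, and Gbp7 was the 1 of 10 that was lower with an unadjusted p under 0.05, against 1.6% of all. Irf7 had an interaction of 0.69 ± 0.33 SE, which was 0.42 without array 07 and as low as 0.15 over the other alternative fits. Psmb9 had an interaction of -0.66 ± 0.39 SE, which was -0.48 without array 17. The interactions of Ifit1, Ifit3 and Psmb8 lay between -0.03 and 0.06. Those 3 took either sign as single arrays were left out, from -0.182 to 0.231 for Ifit1, -0.114 to 0.135 for Ifit3 and -0.184 to 0.055 for Psmb8. Averaged over both genotypes, Gbp7 fell by 0.61 ± 0.11 SE on the log2 scale on low phosphate diet (adjusted p = 0.00931 in limma), the 1 of 10 probe sets that passed, against 0.472% of all tested (0.299% for lower calls). That call was lost without arrays 01 to 04 (adjusted p = 0.0849 in limma), 05 to 08 (0.0859) or 11 to 14 (0.0853) and without terms for sex and days (0.079), and it was 0.0275 without array 17. With an unadjusted p under 0.05, 5 of 10 were lower in that average, against 4.77% of all. Ifi47 had -0.57 ± 0.14 SE in that average (adjusted p = 0.11 in limma), Psmb9 -0.56 and Psmb8 -0.33.

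Hyp and normal mice were then compared on each diet. On control diet, Gbp7 was higher in Hyp mice by 0.72 ± 0.15 SE (95% interval 0.40 to 1.04), with groups that did not overlap, a pattern seen in 0.518% of all probe sets in that direction. Its adjusted p was 0.0634 in limma, above the threshold, and 0 of 10 probe sets passed, against 0.253% of all. With an unadjusted p under 0.05, 3 of 10 were higher in Hyp mice, against 5.06% of all: Gbp7, Gbp2 (0.64 ± 0.21 SE) and Ifi47 (0.54 ± 0.20 SE). Ifit1 (0.46), Ifit3 (0.35), Psmb8 (0.28), Psmb9 (0.27) and Isg15 (0.17) had positive differences with intervals that reach below 0, and Irf7 had -0.16 ± 0.23 SE. In all, 9 of 10 differences were above 0, against 53.5% of all. Without array 17 the difference was 0.66 for Gbp7, 0.37 for Gbp2 and 0.40 for Ifi47. Without arrays 05 to 08 these were 0.76, 0.67 and 0.42. This comparison and the diet comparison in Hyp mice share the 5 Hyp control arrays, so their values are not independent.

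On low phosphate diet, 0 of 10 probe sets passed in limma, against 0.357% of all, and 2 of 10 were higher in Hyp mice with an unadjusted p under 0.05, against 5.32% of all. Differences above 0 numbered 9 of 10, against 54.2% of all. The 2 with an unadjusted p under 0.05 were Irf7 (0.52 ± 0.23 SE, unadjusted p = 0.0394 in limma) and Ifit3 (0.36 ± 0.16 SE, unadjusted p = 0.0412 in limma). Ifit1 differed by 0.52, Ifi47 by 0.39, Isg15 by 0.35 and Psmb8 by 0.25. Without array 10, a Hyp low phosphate array, Ifit1 differed by 0.28, Ifi47 by 0.27 and Ifit3 by 0.26. Ifit1 differed by 0.17 to 0.78 over the other alternative fits. Without arrays 05 to 08 Irf7 differed by 0.35, Isg15 by 0.18 and Psmb8 by 0.12. Both guanylate-binding protein genes lay close to 0 here, with 0.06 (95% interval -0.26 to 0.38) for Gbp7 and 0.11 (-0.33 to 0.56) for Gbp2, and Psmb9 had -0.39 ± 0.28 SE. Averaged over diets, 0 of 10 passed in limma, against 1.28% of all, and 6 of 10 were higher in Hyp mice with an unadjusted p under 0.05, against 8.65% of all. These 6 were Ifit1 (0.49), Ifi47 (0.47), Gbp7 (0.39), Gbp2 (0.38), Ifit3 (0.36) and Psmb8 (0.27), with the smallest adjusted p, 0.0992 in limma, for Gbp7.

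**Figure D2:**
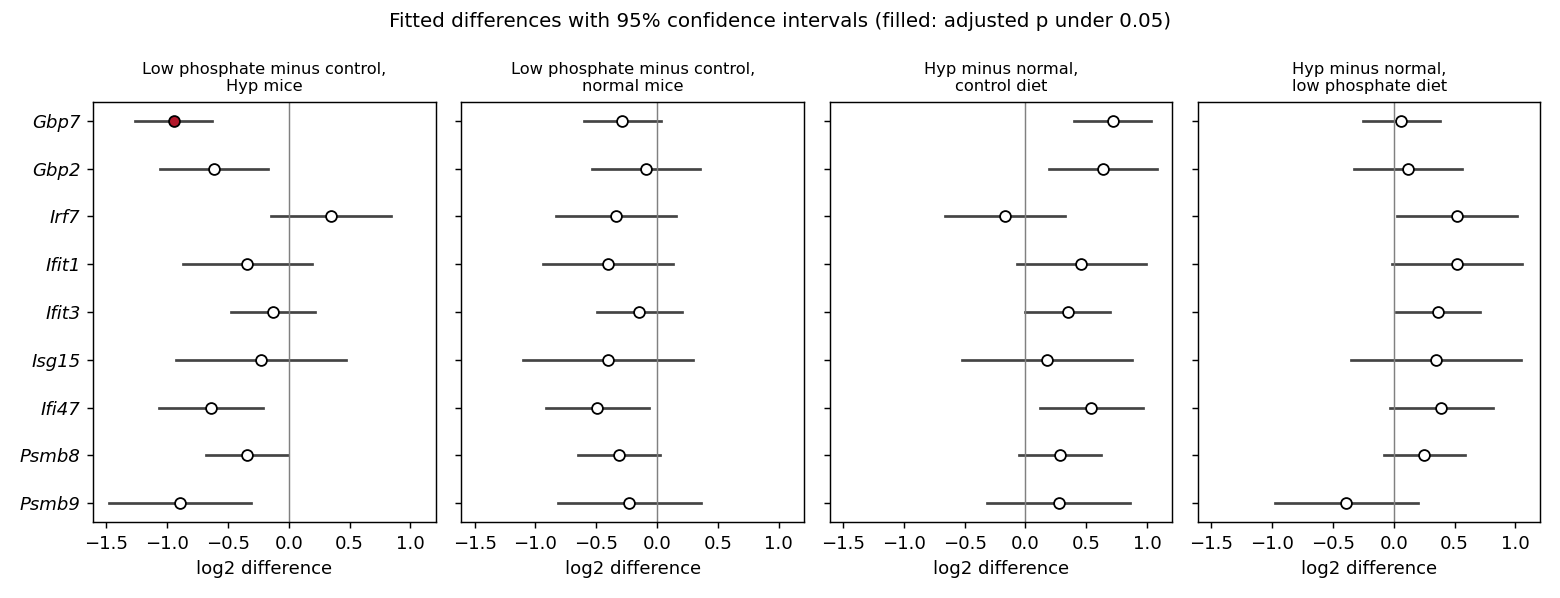
Fitted log2 differences (horizontal axis) of the 9 genes with their 95% confidence intervals in 4 comparisons; a filled point has an adjusted p under 0.05. The 1 filled point is Gbp7 in Hyp mice on low phosphate against control diet, at -0.94, and on control diet the Gbp7, Gbp2 and Ifi47 intervals lie above 0 in Hyp minus normal.

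Within array sets, each pair of arrays shares sex, days and run of title numbers, so the members were also compared pair by pair. Between Hyp and normal control mice, the median difference over the 9 genes was 0.49 in arrays 01 to 04, 0.50 in 05 to 08, 0.15 in 11 to 14 and 0.83 in 15 to 18. Of the 10 probe sets, 7 were higher in Hyp mice in all 4 sets, against 8.83% of all tested, the exceptions being Ifit1 and both of Irf7; for Ifit3 the smallest of its 4 differences was 0.006. Hyp control was the highest of the 4 groups in all 4 sets for 4 of 10 (Gbp7, Isg15, Ifi47 and Psmb8), against 0.989% of all. Both counts leave out the Hyp control array 09 and the normal control array 19, which stand in no set with both genotypes. These 2 arrays are both male at 5 days. Array 09 was lower than array 19 for Isg15 (207.6 against 404.5), Psmb8 (348.8 against 449.6) and Ifit3 (311.9 against 358.2). It was also lower for Ifi47 (112.4 against 121.9) and Irf7 (212.7 against 226.2), and higher for Gbp7, Gbp2, Ifit1 and Psmb9. On low phosphate diet the medians between genotypes were 0.48, 0.37, -0.05 and 0.10 in the same sets, and 2 of 10, Irf7 and Psmb8, were higher in Hyp mice in all 4, against 9.98% of all. The medians over all genes lay within 0.05 of 0 in every such pair.

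In Hyp mice the diet medians were -0.40 in arrays 01 to 04, -0.47 in 05 to 08, -0.51 in 11 to 14 and -1.01 in 15 to 18, with 9, 6, 7 and 9 of the 9 genes lower on low phosphate diet. The pair 09 and 10 ran the other way, with a median of 0.32 and 7 of 9 genes higher on low phosphate diet. In that pair Isg15 differed by 1.25, Ifit1 by 1.08 and Ifit3 by 0.72, while Gbp7 (-0.42) and Psmb9 (-1.03) were lower. Gbp7 was the 1 of 10 probe sets lower in all 5 pairs, against 3.76% of all. In normal mice the medians ran from -0.43 to -0.13 over the 5 pairs, and 2 of 10, Ifi47 and Psmb8, were lower in all 5, against 7.0% of all.

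**Figure D3:**
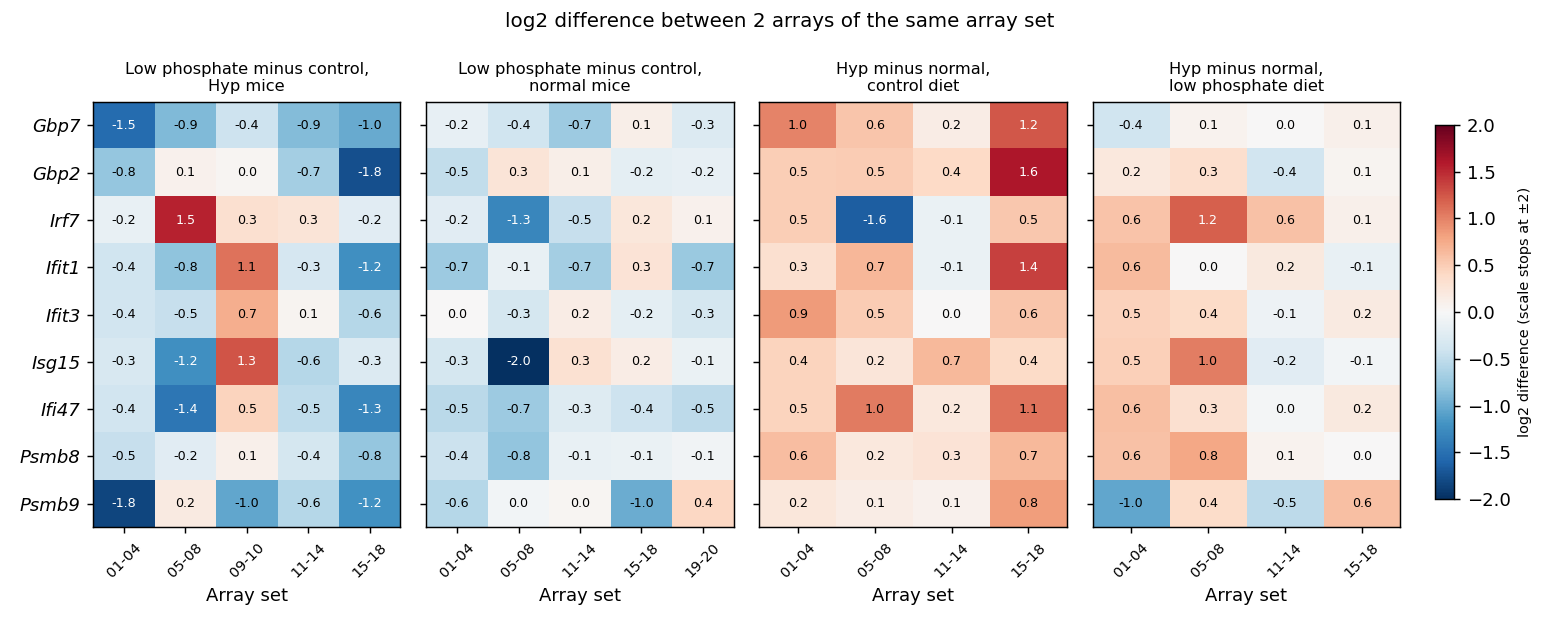
Log2 difference between 2 arrays of the same set (colour and printed value, colour scale from -2 to 2) for the 9 genes (vertical) in each array set (horizontal), for 4 comparisons. Hyp minus normal on control diet is positive for 9, 8, 7 and 9 of the 9 genes in the 4 sets, and the diet difference in Hyp mice is negative for most genes except in arrays 09 and 10.

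Most pairs of the 9 genes varied in the same direction across arrays. Of 36 pairs, 34 had a Pearson r above 0 over the 20 arrays, with a median of 0.51, a lowest value of -0.185 (Irf7 with Ifit1) and a highest of 0.825 (Ifi47 with Psmb8). Without array 17 it was 29 of 36, with a median of 0.322 and a lowest value of -0.518 (Ifit1 with Psmb9). The mean over the 9 genes, each gene centred on its own mean, was 1.04 on array 17, 0.60 on array 03, the next highest, and -0.70 on array 06, the lowest. Array 17 was among the 5 highest arrays for 9 of 9 genes, array 03 for 8, and array 07 for 6, all 3 being Hyp control arrays; the Hyp control array 09 had -0.17. Over 20 arrays the Pearson r of a gene with that mean, which includes the gene itself, was 0.92 for Ifi47, 0.91 for Psmb8, 0.82 for Gbp7 and 0.80 for Ifit3, and the lowest was 0.44 for Irf7. These are descriptions over arrays that share groups and sets, and without array 17 they were 0.86, 0.88, 0.72, 0.70 and 0.37. The lowest without array 17 was that of Ifit1, at 0.308, against 0.488 with it, while Gbp2 had 0.423, against 0.728, Psmb9 0.419, against 0.623, and Isg15 0.783, against 0.683.

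**Figure D4:**
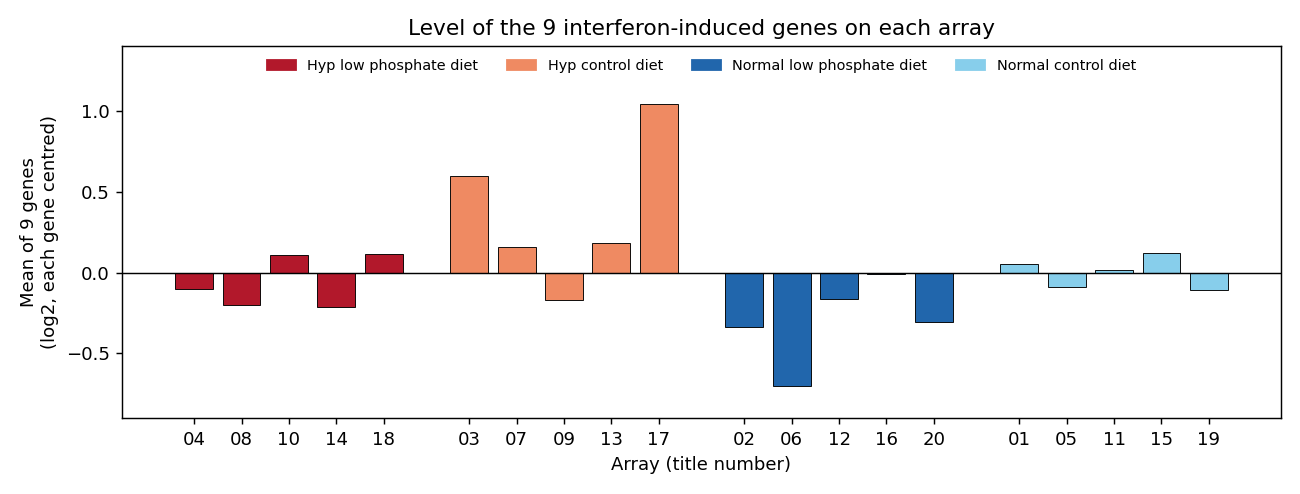
Mean of the 9 genes on each array (vertical axis, log2 units, each gene centred on its mean over 20 arrays), by group and title number. Array 17 (Hyp control) is highest at 1.04 and array 06 (normal low phosphate) lowest at -0.70, while the Hyp control array 09, at -0.17, lies below 0.

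Outside the 9 members, the gene with the most similar pattern to this mean was Ctss, the lysosomal protease cathepsin S (r = 0.86 over 20 arrays and 0.83 without array 17). It was followed by the GTPase gene Igtp (0.85 and 0.68), the third immunoproteasome subunit gene Psmb10 (0.82 and 0.69), the MHC class II invariant chain gene Cd74 (0.80 and 0.67) and the GTPase gene Irgm1 (0.80 and 0.60). The rest of the 10 most similar genes were Hbb-b2, Mgp, B2m, Ifitm3 and Sec14l1, with r from 0.76 to 0.78 over 20 arrays. Without array 17 they had 0.728, 0.807, 0.741, 0.785 and 0.735 in that order. Each of these lay above the values of Igtp, Psmb10, Cd74 and Irgm1 without array 17. Ctss also stands on the macrophage marker list described below, and Igtp, Psmb10, Cd74, Irgm1, B2m and Ifitm3 on the pathway list that follows.

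A list of 109 other interferon pathway genes had 78 on the array and 63 above the filter. In Hyp mice on low phosphate against control diet, 0 of 63 passed in limma, and 5 were lower (7.94%, against 2.29% of all 6433 genes tested) and 0 higher (against 2.56%) with an unadjusted p under 0.05. The median was -0.07, against 0.00 over all genes and -0.34 over the 9 members. Between Hyp and normal control mice, 0 of 63 passed, and 9 were higher (14.3%, against 4.93% of all genes) and 0 lower (against 3.75%) with an unadjusted p under 0.05. Of the differences, 53 of 63 were positive (84.1%, against 52.8%), with a median of 0.17 against 0.01 over all genes and 0.35 over the members. On low phosphate diet 1 of 63 passed, against 15 higher and 12 lower calls among all 6433 genes. With an unadjusted p under 0.05, 8 were higher (12.7%, against 5.21% of all genes) and 1 lower (1.59%, against 4.21%). Of the differences, 44 of 63 were positive (69.8%, against 54% of all genes), with a median of 0.13. In normal mice the diet comparison had 0 of 63 past the threshold, and 2 higher and 3 lower with an unadjusted p under 0.05, shares of 3.17% and 4.76% that lay near the 3.92% and 4.52% of all genes. Its median was -0.03.

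The 2 pathway genes that passed in any comparison were higher in Hyp mice. Lgals3bp encodes a secreted galectin-binding protein, and its mean intensity was 1236 in Hyp low phosphate and 1218 in Hyp control mice, against 818 in normal low phosphate and 942 in normal control mice. On low phosphate diet it was higher in Hyp mice by 0.58 ± 0.12 SE (adjusted p = 0.0329 in limma), with every Hyp array, at 1084 or above, over every normal array, at 985 or below, as in 0.518% of all probe sets in that direction. That call was lost, with adjusted p-values of 0.0513 to 0.111, when any of 12 of the 20 arrays was left out, while the difference averaged over diets, 0.46 ± 0.08 SE (adjusted p = 0.0068 in limma), passed without any 1 array and was lost without arrays 01 to 04 (0.0557) or 15 to 18 (0.0595). Plscr1 encodes phospholipid scramblase 1, and it averaged 698 in Hyp low phosphate and 826 in Hyp control mice, against 510.4 in normal low phosphate and 589.7 in normal control mice. Averaged over diets it was higher in Hyp mice by 0.43 ± 0.09 SE (adjusted p = 0.0163 in limma). That call was lost without arrays 01 to 04, 11 to 14 or 15 to 18 (adjusted p = 0.0812 to 0.14 in limma). The Hyp and normal arrays of Plscr1 did not overlap on either diet, which held in that direction for 0.518% of all probe sets on each.

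Of the interferon-gamma GTPase genes, 5 besides the members were measured. Gbp3 differed by -0.45, Iigp1 by -0.62, Igtp by -0.53, Irgm2 by -0.37 and Irgm1 by -0.18 in Hyp mice on low phosphate against control diet, and 0 of 5 passed in limma. Between Hyp and normal control mice the 5 were 0.27, 0.53, 0.58, 0.56 and 0.29 in that order, again with 0 past the threshold. Mean Iigp1 intensity, as an example, was 530.4 in Hyp low phosphate, 881 in Hyp control, 459 in normal low phosphate and 558 in normal control mice. All 5 differences were negative for diet in each genotype and positive for genotype on each diet.

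Of 16 antigen presentation genes, 15 had a difference above 0 between Hyp and normal control mice (93.8%, against 52.8% of all genes), with a median of 0.22. On low phosphate diet it was 9 of 16 (56.2%, against 54%), with a median of 0.05, and 0 passed in limma on either diet. H2-K1, an MHC class I heavy chain, differed on control diet by 0.29 ± 0.10 SE, and B2m, its partner beta-2-microglobulin, by 0.11 ± 0.15 SE. Psmb10 differed by -0.15 ± 0.13 SE in Hyp mice on low phosphate against control diet, beside -0.34 for Psmb8 and -0.89 for Psmb9. The subunits that these 3 replace, Psmb5, Psmb6 and Psmb7, had -0.19, -0.12 and -0.15, the last from a probe set whose name marks it as shared within a gene family. The list of 14 constitutive core genes, all measured, had a median of -0.09 in that comparison with 14 of 14 negative (against 48.9% of all genes) and 0 past the threshold, and a median of -0.06 in Hyp minus normal on control diet with 4 of 14 positive (against 52.8%).

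Among 25 measured type I response genes, 21 were positive in Hyp minus normal on control diet (84%, against 52.8% of all genes), with a median of 0.17. Ifitm3, a membrane protein that blocks viral entry, differed by -0.48 ± 0.18 SE in normal mice on low phosphate against control diet (unadjusted p = 0.0171, adjusted p = 0.419 in limma), and Ly6e by 0.04. In that comparison 2 of the 25 were lower and 2 higher with an unadjusted p under 0.05 in limma. These shares were 8% each, against 4.52% and 3.92% of all genes, and the median of the 25 was -0.02. The kinase genes Jak1 and Jak2, which relay the receptor signal, differed by 0.01 and 0.08 between genotypes on control diet. The transcription factor genes Irf1 and Irf9 differed by 0.25 and 0.23 on control diet and by 0.34 and 0.29 on low phosphate diet, with 0 of 5 measured factors past the threshold in limma in either. Of 8 ligand genes on the array, 5 lay below the filter, with mean intensities of 12.1 for Ifng and 49.1 for Ifnb1. Ifna5 and Ifna9, above it, differed by 0.37 ± 0.20 SE and 0.14 ± 0.30 SE between genotypes on control diet, from probe sets shared within the family. All 5 chemokine genes on the array lay below the filter.

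Leukocyte markers were examined beside these differences, since macrophages and lymphocytes express interferon-induced genes. The summed intensity of 13 macrophage markers ran from 4689 to 5792 in Hyp low phosphate, 4770 to 5986 in Hyp control, 4388 to 4566 in normal low phosphate and 4320 to 4992 in normal control mice. Of the 10 macrophage markers above the filter, 9 were positive in Hyp minus normal on either diet (against 52.8% of all genes on control and 54% on low phosphate diet), with medians of 0.15 on control and 0.23 on low phosphate diet and 0 past the threshold in limma, and Itgam had a mean under the offset. In the diet comparison in Hyp mice 7 of 10 were negative (against 48.9% of all genes) with a median of -0.08. On array 17 the macrophage sum was the fourth highest of 20. The part of macrophage markers in the members' differences was not tested.

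Markers of other cell types were examined in the same way. Of 11 T and NK cell markers 9 were on the array, with Cd3g, Cd3d, Cd8a, Cd8b1, Cd2 and Gzma at a mean under the offset, and their sum ran from 322 to 1008 in Hyp low phosphate, 267 to 1051 in Hyp control, 285 to 1011 in normal low phosphate and 422 to 676 in normal control mice. Array 17 ranked 15 of 20 on that sum. The 5 B cell markers on the array, with Cd22 at a mean under the offset, summed to 676 to 1567 in Hyp low phosphate, 645 to 1225 in Hyp control, 660.3 to 1294 in normal low phosphate and 529 to 992 in normal control mice. Red blood cell markers, 3 of 6 on the array, summed to 10309 to 12656 in Hyp low phosphate, 6660.2 to 15232 in Hyp control, 6878 to 10401 in normal low phosphate and 8685 to 11888 in normal control mice, and array 17 was second highest. All 3 were positive in Hyp minus normal on either diet (against 52.8% of all genes on control and 54% on low phosphate diet), with medians of 0.34 on control and 0.37 on low phosphate diet. Averaged over diets Slc4a1, the band 3 anion exchanger that red cells share with intercalated cells of the kidney, was higher in Hyp mice by 0.35 ± 0.08 SE (adjusted p = 0.0426 in limma). That call was not followed in the alternative fits. In the diet comparison in Hyp mice 2 of 3 red blood cell markers were negative (against 48.9% of all genes), with a median of -0.14. The part of these markers in the members' differences was not tested either.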

How the data were processed

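The deposited intensity values were linear, 1 for each probe set on each array, and as the values show the authors had brought every array to the same mean after trimming 2% at each end; no source used here names their software. Medians of the arrays ran from 186 to 228. Of 12488 probe sets 66 were controls, and of the other 12422 the platform annotation named 1 gene for 10833, several for 396 and none for 1193. The offset of 37.8, the 20th percentile, was added before log2, so a log2 difference understates the change of a dim gene, and probe sets with a mean under 79.4, the 30th percentile, were left out. The 7 comparisons were fitted to all 20 arrays in limma (version 3.58.1, R 4.3.3) with terms for 4 groups and 4 strata of sex and days (13 residual degrees of freedom), moderated by eBayes, with two-sided p-values adjusted by Benjamini-Hochberg over 8695 probe sets. No pair of arrays was identical. The spread behind the p-values is that between pools of 3 mice, and the number of arrays limits the precision.

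The members, lists and rules of description were chosen with earlier results of these data known. Named beyond the members were pathway genes past the threshold, 2 genes with the highest mean intensity per class, Psmb5, Psmb6, Psmb7 and Psmb10, and the 10 genes of most similar pattern; other genes named are examples or were chosen after their values were seen. Where a gene has several probe sets, the brightest stands for it. On simulated data for the diet comparison in Hyp mice (200 of 8695 probe sets changed, 10 draws), 33.4% of log2 changes of 0.5 and 85.3% of log2 changes of 1 were found, with 6.32% false among the calls. The real comparison had 13 calls, so shares found with 200 changed probe sets need not hold for it. Alternatives are listed with their effect in the closing section.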

Additional observations from a re-analysis of the deposited data

Results flagged for a closer look

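Of 40 groups of 5 arrays, 10 probe sets in 4 groups each, 3 held 1 array whose gap to the nearest other exceeded Dixon's critical share of the group's range (0.71), and chance alone would give about 1 in 20. For Gbp2 in Hyp control mice, array 17 had 646.4 and the nearest array 324.6, a gap of 0.75 of the range. Ifi47 in Hyp control mice had 433.0 on array 17 and 204.7 on the nearest array, 0.712 of the range. Isg15 in normal low phosphate mice had 72.0 on array 06, the low end, and 367.1 on the nearest array, 0.729 of the range. Array 17 belongs to the set of females at 3 days, and array 06 to the set 05 to 08 with the lower correlations. No cause was tested.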

How the results depend on the processing

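The number of members past the threshold changed in some alternatives, each time through Gbp7 or Ifi47, and no call turned its direction. For diet in Hyp mice (1 in the fit reported) it was 0 without terms for sex and days (Gbp7 adjusted p = 0.0865 in limma), without arrays 01 to 04 (0.177), 05 to 08 (0.126) or 15 to 18 (0.0831), and with only the arrays of the groups compared (0.282). It ranged from 0 to 1 when each array was left out, and Gbp7 was lost without array 14 (0.0561) and without array 17 (0.0599). For diet averaged over genotypes (1) it was 0 without terms for sex and days (0.079) and without arrays 01 to 04 (0.0849), 05 to 08 (0.0859) or 11 to 14 (0.0853), and 2 without arrays 09, 10, 19 and 20, where Ifi47 passed (0.0422). It ranged from 1 to 2 over single arrays left out, with Ifi47 past the threshold without array 09 (0.0264). For genotype on control diet (0) it was 1, Gbp7, with a filter at the median (0.037) and with trend and robust variances (0.0398), and ranged from 0 to 1 over single arrays left out (Gbp7 without array 04, 10 or 11, 0.0294 to 0.0396). For genotype averaged over diets (0) it ranged from 0 to 1 (Ifi47 without array 09, 0.044; Gbp7 without array 11, 0.0371). It stayed at 0 under every alternative run for diet in normal mice, genotype on low phosphate diet and the interaction.

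By replicate number, no paired analysis was possible because the labels give none. Arrays were paired by array set instead, and with the array set as a block Gbp7 kept its call in Hyp mice (adjusted p = 0.0203 in limma). The member counts were the same as in the fit reported with an offset of 1, quantile normalization and no intensity filter. Lgals3bp lost its low phosphate call without each of the 5 groups of arrays left out together (0.0781 to 0.212), without terms for sex and days (0.141) and with only the groups compared (0.186); its averaged call was lost without arrays 01 to 04 (0.0557) or 15 to 18 (0.0595). Plscr1 lost its averaged call without arrays 01 to 04 (0.0931), 11 to 14 (0.0812) or 15 to 18 (0.14). Over all probe sets, the count for diet in Hyp mice was 13 in the fit reported and 4 to 17 over the alternatives; it was 16 and 1 to 58 for diet in normal mice, 22 and 2 to 27 for genotype on control diet, 31 and 9 to 49 on low phosphate diet, 4 and 1 to 5 for the interaction, 41 and 14 to 97 for diet averaged, and 111 and 29 to 128 for genotype averaged. Fits that leave out whole sets hold fewer arrays. Signal over background was not analysed here.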

Other observations

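Promoter windows of the wider pathway lists were searched for the same letters. The ISRE letters stood in 7 of 7 other interferon-gamma GTPase genes, in 14 of 32 type I response genes, in 4 of 16 antigen presentation genes and in 1 of 11 constitutive proteasome genes, against 3.99% of all 27025 genes with a window. The GAS letters stood in 5, 11, 0 and 0 of these genes in the same order, against 9.55% of all. A gene counts once when any of its windows holds a match.

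Endothelial markers, all 5 above the filter, summed to 2777 to 3590 in Hyp low phosphate, 3003 to 4185 in Hyp control, 2640 to 3333 in normal low phosphate and 2657 to 3647 in normal control mice, and array 17 ranked 10 of 20 on that sum. Dendritic cell markers, 2 of 3 on the array, had a sum that ranked 12 of 20 on array 17, as did neutrophil markers with 4 of 4 on the array.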
